A study of Mus musculus with 18 samples.

Results

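The genes described here are 9 markers of the classical monocyte, namely Ly6c2, Ccr2, Cx3cr1, Lyz2, F13a1, Fn1, Klf4, Cd14 and S100a4. They were taken by gene symbol from the authors' deposited table of DESeq2 results on marrow, which lists 14423 genes, and from that on spleen, which lists 21830. All 9 were present in both tables, each averaging 20 or more normalized counts. RNA from dissociated cells was sequenced with QuantSeq, which counts 3' tags near the polyadenylated end of an mRNA. All mice were C57BL/6. Bone marrow came from Cgas-/- mice (4 libraries), which lack the DNA sensor cGAS and have no Trex1 or Sting1 mutation in their labels, and from dKO mice (4 libraries), which are Trex1-/-;Sting1gt/gt and so lack the exonuclease TREX1 and functional STING. Spleens came from lethally irradiated dKO mice that had received Cgas-/- marrow (5 libraries) or dKO marrow (5 libraries) 12 weeks earlier, so every recipient lacked TREX1 and functional STING in its own surviving cells. Age and sex are not given in the labels, and both groups of each comparison are mutant, so there was no wild-type reference. The labels do not say that each library came from another mouse, and p-values then measure only the spread between these libraries, which may be technical.

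Classical monocytes are made in the bone marrow from granulocyte and monocyte progenitors, leave it through the chemokine receptor CCR2, and enter inflamed tissue, where they become macrophages or dendritic cells. In the mouse they carry high surface Ly6C, encoded by Ly6c1 and Ly6c2, and low CX3CR1, and a part of them turns into the Ly6C-low monocytes that patrol vessels. KLF4 is a transcription factor needed for monocyte formation in mice. No member is exclusive to monocytes. Lyz2 is also read from neutrophils and macrophages, S100a4 from T cells and macrophages, Cx3cr1 from Ly6C-low monocytes and some NK cells, F13a1 from megakaryocytes, Fn1 from macrophages and stroma, and Klf4 from many cells.

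The members that passed the test in bone marrow were Ly6c2 and Lyz2, and each has a close paralog, Ly6c1 and Lyz1. The 250 bases before the RefSeq start of each of the 4 genes are shown so that each called member can be set beside its paralog. Sequences are from RefSeq on GRCm38.p6, 5′ to 3′ on the coding strand, which is the minus strand for each, at chr15:75111972-75112221 (Ly6c2), chr15:75048838-75049087 (Ly6c1), chr10:117282273-117282522 (Lyz2) and chr10:117292869-117293118 (Lyz1). Capitals mark AGGAAGT, or ACTTCCT where it lies on the other strand, the letters of a PU.1 or other ETS factor motif, PU.1 being the lineage factor of myeloid cells.
Ly6c2: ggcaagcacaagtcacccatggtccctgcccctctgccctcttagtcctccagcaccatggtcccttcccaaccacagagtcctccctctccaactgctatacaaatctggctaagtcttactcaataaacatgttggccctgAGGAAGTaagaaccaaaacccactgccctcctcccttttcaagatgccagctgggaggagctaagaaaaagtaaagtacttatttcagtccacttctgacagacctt
Ly6c1: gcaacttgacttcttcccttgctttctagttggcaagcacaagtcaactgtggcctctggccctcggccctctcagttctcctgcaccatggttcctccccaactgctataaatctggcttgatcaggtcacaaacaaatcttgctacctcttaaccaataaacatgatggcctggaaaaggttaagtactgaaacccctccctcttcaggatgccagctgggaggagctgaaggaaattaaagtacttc
Lyz2: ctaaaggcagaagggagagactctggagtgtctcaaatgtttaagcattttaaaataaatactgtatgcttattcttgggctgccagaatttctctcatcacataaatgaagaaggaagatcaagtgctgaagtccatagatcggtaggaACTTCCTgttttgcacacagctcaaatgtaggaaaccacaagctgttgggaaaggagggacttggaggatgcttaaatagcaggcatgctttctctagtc
Lyz1: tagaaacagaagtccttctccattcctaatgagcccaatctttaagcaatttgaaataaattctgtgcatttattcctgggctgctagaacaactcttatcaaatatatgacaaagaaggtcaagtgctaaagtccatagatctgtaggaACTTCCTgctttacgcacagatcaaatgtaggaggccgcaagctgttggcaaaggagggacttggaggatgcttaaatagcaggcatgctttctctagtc
The Ly6c2 window matched Ly6c1 at 59.0% of aligned positions and the Lyz2 window matched Lyz1 at 78.8%. In GENCODE, Lyz2 starts at 117282321, inside its window, so part of that window lies within the gene by that annotation. Counted from the RefSeq starts, the AGGAAGT letters began 107 bases before Ly6c2 and, on the other strand, 100 bases before both Lyz2 and Lyz1. They were not in the Ly6c1 window. Among the 7 members with a RefSeq window (Fn1 and Cd14 are named only), Ly6c2 and Lyz2 held them, beside 7.80% of 27025 windows of this length. The interferon-stimulated response element (GAAA, NN, GAAA) and the gamma-activated site (TTCNNNGAA) were in none of the 7 windows, beside 3.04% and 7.18% of all windows. TTNNGNAA, a C/EBP motif, was in those of Ccr2, F13a1, Ly6c2 and Lyz2 (36.9% of all windows), and CCACCC, a KLF motif, in those of Cx3cr1 and S100a4 (27.7%). All motifs were searched on both strands, and a match describes letters only.

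The annotated transcripts of these pairs are alike at the end that QuantSeq reads. Over the last 300 bases, Ly6c2 and Ly6c1 were identical at 93.5% of aligned positions with a shared run of 124 bases, and Lyz2 and Lyz1 at 93.8% with a shared run of 104 bases. Single values of Ly6c2 and Lyz2 are therefore uncertain where the authors' counting could split tags between copies. The authors' deposited table lists the paralogs far lower in marrow, with mean normalized counts of 10.7 for Ly6c1 and 35.5 for Lyz1, beside 6572 for Ly6c2 and 65328 for Lyz2. The authors' deposited table has 45.3 in spleen for Ly6c1 and 43.8 for Lyz1, beside 496 for Ly6c2 and 5329 for Lyz2.

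Levels were read first, as the authors' mean normalized count over all libraries of a tissue. A 3' tag count does not scale with transcript length, so members can be ranked within a table, while the tables were normalized separately and set no level across tissues. Values per library and per group were not used here, and the depth per library is unknown. Lyz2, which encodes the bacteriolytic lysozyme of myeloid cells, was the 9th most abundant gene of marrow by the authors' deposited table and held 0.673% of all summed means. Behind it came Ly6c2 (rank 132), the transglutaminase gene F13a1 (4483, rank 224), Ccr2 (3159, rank 342), the calcium-binding protein gene S100a4 (2713, rank 410) and the fibronectin gene Fn1 (2554, rank 443), in the authors' deposited table. Klf4 (967) and the fractalkine receptor gene Cx3cr1 (628) were lower, and Cd14, the lipopolysaccharide co-receptor gene, was near the low end at 41.1, rank 10471, in the authors' deposited table. No spread between libraries is attached to these means, so whether neighbours such as S100a4 and Fn1 differ in level cannot be told.

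The order was another one in spleen. By the authors' deposited table Lyz2 was again highest in spleen among the members (rank 64), but S100a4 came second at 2701 (rank 171), ahead of Ly6c2 (rank 2036). Cx3cr1 (375), Fn1 (304), Ccr2 (276), F13a1 (162) and Klf4 (98.6) followed, and Cd14 was lowest at 27.7 in the authors' deposited table. Summed over the members, the share of all means was 0.890% in marrow and 0.214% in spleen, computed from the authors' deposited tables. The means therefore show all 9 markers as detected in both tissues, with Cd14 weakest in each.

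**Figure D1:**
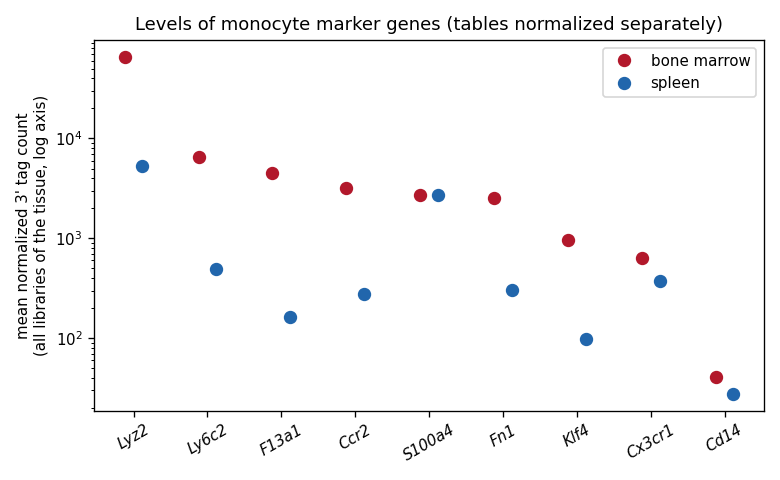
Mean normalized 3' tag count of each of the 9 members (log axis) in the authors' tables for bone marrow (red) and spleen (blue), ordered by the bone marrow value. Lyz2 is highest in both at 65328 and 5329 and Cd14 lowest at 41.1 and 27.7; the tables were normalized separately, and no spread between libraries is available.

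The bone marrow comparison sets marrow of Cgas-/- mice against marrow of dKO mice. Ly6c2 and Lyz2 fell in Cgas-/- marrow, by 1.3-fold and 1.5-fold. The other members did not pass the test, although 8 of the 9 had a log2 fold change below 0, beside 50.7% of all genes with a mean of at least 20. By the authors' deposited table, 2 of 9 members passed a DESeq2 adjusted p of 0.05, both lower, where 0.534% of all genes passed in either direction and 0.361% passed as lower. The median log2 fold change of the 9 was -0.32, and that of all genes with a mean of at least 20 was -0.0029. At an unadjusted p under 0.05, 3 members were lower and 0 higher, beside 4.65% and 4.19% of all genes. In bulk RNA, fewer monocytes, a shift in other cells that express these genes, and less of an RNA per cell cannot be told apart.

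Among the surface proteins, the authors' deposited table puts Ly6c2 at -0.33 ± 0.0794 on the log2 scale (± is the standard error throughout, with 4 libraries a group), and its DESeq2 adjusted p was 0.0116. Its approximate 95% interval ran between -0.49 and -0.18, and its call was lost under Holm adjustment (adjusted p = 0.415). Cx3cr1 had almost the same estimate, -0.34 ± 0.137, and did not pass over all genes (DESeq2 adjusted p = 0.349, unadjusted p = 0.0136, authors' deposited table). For Ccr2, the receptor for CCL2 by which monocytes leave the marrow, the authors' deposited table has -0.23 ± 0.202 (DESeq2 adjusted p = 0.864). The authors' deposited table puts Cd14 at -0.08 ± 0.293 (DESeq2 adjusted p = 0.992), and its interval, between -0.65 and 0.50, spans changes as large as that of Ly6c2 in either direction.

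Of the secreted and cytosolic products, Lyz2 had the largest estimate, which the authors' deposited table puts at -0.56 ± 0.0892 (DESeq2 adjusted p = 3.76e-07), with an interval between -0.74 and -0.39. F13a1, which encodes the A subunit of coagulation factor XIII, was at -0.36 ± 0.242 (DESeq2 adjusted p = 0.753, authors' deposited table). Fn1, the extracellular matrix protein fibronectin, was at -0.32 ± 0.311 (DESeq2 adjusted p = 0.886) and S100a4 at -0.14 ± 0.193 (DESeq2 adjusted p = 0.937), both in the authors' deposited table. The estimates of F13a1 and Fn1 were thus close to that of Ly6c2, with far larger errors. Klf4 was the single member above 0, where the authors' deposited table gives 0.21 ± 0.238 (DESeq2 adjusted p = 0.909), and its interval reached -0.25. The members were measured in the same libraries and their covariance is not known, so differences between 2 members were not tested.

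**Figure D2:**
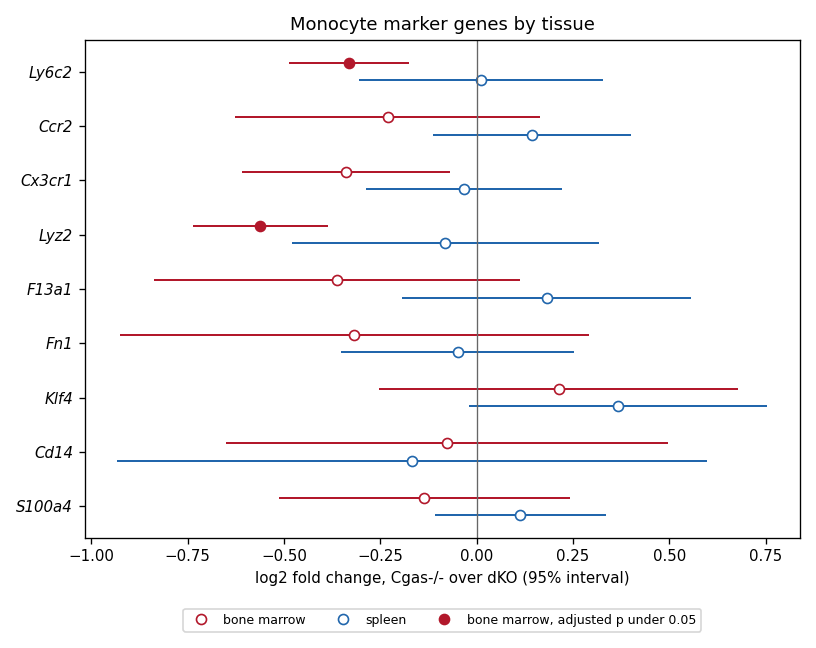
Log2 fold change of each member (points) with its approximate 95% interval (bars) for Cgas-/- over dKO bone marrow (red, upper point) and for spleens of dKO recipients of Cgas-/- over dKO marrow (blue, lower point), from the authors' deposited tables. The filled points are Lyz2 at -0.56 and Ly6c2 at -0.33 in bone marrow, the members with a DESeq2 adjusted p under 0.05; every spleen interval includes 0.

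The members fell into separate classes by the size of their error. For each gene the standard error was divided by the median standard error of the 500 genes nearest in mean level. In bone marrow that ratio was 1.01 for Ly6c2, 1.13 for Lyz2, 1.33 for Cx3cr1 and 0.916 for Cd14. It was 2.42 for S100a4, 2.55 for Ccr2, 2.55 for Klf4, 3.07 for F13a1 and 3.86 for Fn1, so the errors of these 5 were far above what was usual at their level. A ratio above 2 was found for 5 of 9 members in bone marrow, beside 1.29% of all genes with a mean of at least 20. In spleen the ratio passed 2 for Lyz2 alone (2.44), beside 2.30% of all such genes, and lay between 1.23 and 1.75 for the others.

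These errors set what the test could call. In marrow the smallest Wald statistic that passed was 3.65 in size, by the authors' deposited table. A log2 change of 0.289 in Ly6c2 would thus have passed, whereas Ccr2 needed 0.735, F13a1 0.883 and Fn1 1.13. Estimates of the size seen for Ly6c2 were therefore not detectable at the errors of those members. Among genes outside the 9, the matrix proteoglycan gene Vcan, another gene of classical monocytes, had a ratio of 4.32 and was at -0.68 ± 0.673 in the authors' deposited table. Among the other lists, genes with a ratio above 2 in bone marrow included 4 of 10 erythroid genes, 3 of 18 interferon-stimulated genes, 1 of 7 Ly6 genes (Ly6a, 2.77), the platelet chemokine genes Pf4 (4.10) and Ppbp (4.32), the macrophage adhesion gene Vcam1 (2.42) and the transcription factor genes Cebpb (2.85) and Maf (2.38). Of the 24 other classical monocyte genes, 1 had such a ratio. Whether 1 library carried these errors was not tested, since values per library were not used.

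**Figure D3:**
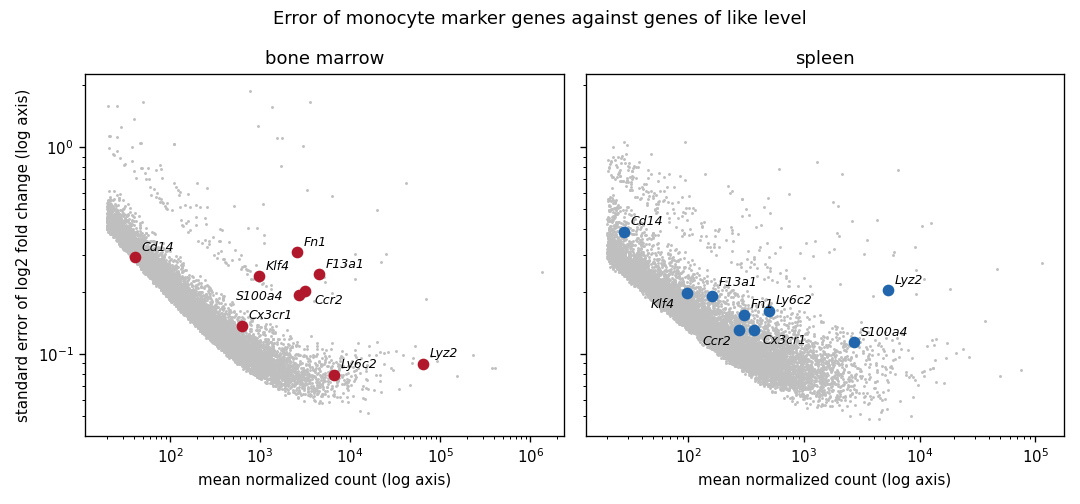
Standard error of the log2 fold change against the mean normalized count (both log axes) for all genes with a mean of at least 20 (grey) and for the 9 members (coloured, named), in bone marrow on the left and spleen on the right, from the authors' tables. In bone marrow Klf4, Ccr2, S100a4, F13a1 and Fn1 lie above the band of genes of like level, at 2.42 to 3.86 times its median, while Ly6c2, Lyz2 and Cd14 lie within it.

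In spleen, where donor marrow was Cgas-/- or dKO and every recipient was dKO, none of the 9 markers passed. By the authors' deposited table, 0 of 9 members had a DESeq2 adjusted p under 0.05, where 0.133% of all genes did, and 0 had an unadjusted p under 0.05, where 3.02% did. Of the 9, 4 had a log2 fold change below 0, beside 48.0% of all genes with a mean of at least 20, and 5 above, with a median of 0.01, beside 0.0057 over all genes with a mean of at least 20. Every member's DESeq2 adjusted p rounds to 1 in the authors' deposited table (5 libraries a group).

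The surface protein genes had estimates on both sides of 0 in spleen. In the authors' deposited table Ly6c2 was at 0.01 ± 0.161, Cx3cr1 at -0.03 ± 0.130, Ccr2 at 0.14 ± 0.131 and Cd14 at -0.17 ± 0.391. The interval of Ly6c2 ran between -0.31 and 0.33. For a call, Ly6c2 would have needed a log2 change of 0.661 in spleen and Lyz2 one of 0.833, so changes of the bone marrow size were below what the spleen test could call. Lyz2 was at -0.08 ± 0.203, Fn1 at -0.05 ± 0.154, S100a4 at 0.11 ± 0.114 and F13a1 at 0.18 ± 0.191 in the authors' deposited table. Klf4 had the largest estimate of the 9, at 0.37 ± 0.197 (unadjusted DESeq2 p = 0.0627) in the authors' deposited table, with an interval between -0.02 and 0.75.

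The tissues were compared directly, by subtracting each gene's marrow log2 fold change from its spleen value, for 13776 genes listed in both tables under the same symbol. No library is shared between the comparisons. None of the 9 members differed past an adjusted p of 0.05 (normal test over all genes with Benjamini-Hochberg adjustment), where 0.0581% of genes did, and 1 had an unadjusted p under 0.05, beside 4.80% of genes. That member was Lyz2, with a difference of 0.48 ± 0.222 (unadjusted p = 0.0304, adjusted p = 0.985 over all genes). Ly6c2 differed by 0.34 ± 0.180 (adjusted p = 0.999), with an interval between -0.01 and 0.70. The difference was above 0 for 8 of 9 members, beside 50.6% of genes with a mean of at least 20 in both tables, and Cd14 was the exception at -0.09 ± 0.488. The fall of Ly6c2 and Lyz2 in bone marrow is therefore not shown to be absent from spleen.

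Other genes of classical monocytes were read from a list of 24. In the authors' deposited table of marrow, 22 of 24 were below 0 with a median of -0.26, and 2 passed at a DESeq2 adjusted p of 0.05, both lower. These were Csf1r, the receptor for the growth factor M-CSF, at -0.37 ± 0.0988 (DESeq2 adjusted p = 0.0356), and Ms4a4c, a membrane protein gene, at -0.60 ± 0.15 (DESeq2 adjusted p = 0.0214, authors' deposited table). Of the 24, 13 had an unadjusted DESeq2 p under 0.05 in marrow, all of them lower. Over all marrow genes, 0.361% passed as lower, and 50.7% of those with a mean of at least 20 were below 0. At an unadjusted DESeq2 p under 0.05, 4.65% of all marrow genes were lower and 4.19% higher. Mgst1, a glutathione transferase gene, was at -0.34 ± 0.0975 and Psap, the precursor of lysosomal saposins, at -0.29 ± 0.0859 without passing (DESeq2 adjusted p = 0.0770 and 0.0907, authors' deposited table). Ly86 (0.21 ± 0.146) and Plac8 (0.00 ± 0.0891) were the 2 above 0 in the authors' deposited table. In spleen, 0 of 24 passed, 0 had an unadjusted DESeq2 p under 0.05, and the median was 0.03, with the integrin gene Itgam at -0.26 ± 0.161 and Plac8 at 0.18 ± 0.12 having the smallest p, by the authors' deposited table. Over all spleen genes, 0.133% passed, 3.02% had an unadjusted DESeq2 p under 0.05, and 48.0% with a mean of at least 20 were below 0. The same shares for marrow and spleen stand beside the counts of the lists that follow.

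Ly6C-low monocyte genes, from a list of 12, had 1 call in bone marrow. This was Cd300e, an activating receptor gene with a mean of 26.5, at -1.68 ± 0.460 (DESeq2 adjusted p = 0.0479) by the authors' deposited table. Itgal, the alpha chain of the integrin LFA-1, was at -0.27 ± 0.0794 and Adgre4 at -0.67 ± 0.246 without passing (DESeq2 adjusted p = 0.0958 and 0.277, authors' deposited table). The median of the 12 was -0.14, with 7 below 0, and 0 passed in spleen by the authors' deposited table, where 1 had an unadjusted DESeq2 p under 0.05. That gene was Nr4a1, which Ly6C-low monocytes need in mice, and the authors' deposited tables give 0.26 ± 0.128 for it in spleen and 0.28 ± 0.277 in marrow.

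Regulators of monocyte development did not move as one group in bone marrow. Of 12 genes, 7 were below 0 and 5 above, with a median of -0.05, and Csf1r was the 1 call in the authors' deposited table. Irf8, a factor that directs progenitors to the monocyte and dendritic fates, was at 0.23 ± 0.0741 (unadjusted DESeq2 p = 0.00228, adjusted p = 0.173), and Id2 at -0.20 ± 0.0855, in the authors' deposited table. Cebpb, a C/EBP factor gene, was above 0 like Klf4, at 0.37 ± 0.352, and neither passed in the authors' deposited table. In spleen 0 of the 12 passed or had an unadjusted DESeq2 p under 0.05 in the authors' deposited table.

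Ligands and partners of the proteins of the 9 genes were measured in part. Of 20 listed genes, 15 were in the bone marrow table, 11 of them below 0, and 0 passed while 3 were lower at an unadjusted DESeq2 p under 0.05. For spleen all 20 were listed by the authors' deposited table, 0 passed and 1 was lower at an unadjusted DESeq2 p under 0.05. CCR2 ligand genes were scarce, with mean normalized counts of 3.97 for Ccl2, 1.02 for Ccl7 and 1.11 for Ccl12 in the authors' deposited table for spleen, where Cx3cl1, the ligand of CX3CR1, had 19.2. Partners of CD14 in lipopolysaccharide sensing were Lbp, at -0.29 ± 0.117 in marrow and -0.72 ± 0.347 in spleen by the authors' deposited tables, and Tlr4, at -0.11 ± 0.210 and 0.06 ± 0.158. The integrin genes Itgb1 and Itga4, whose products bind fibronectin, were at 0.07 ± 0.0971 and 0.06 ± 0.106 in bone marrow in the authors' deposited table.

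Family members of Ly6c2, S100a4 and Klf4 had no call in either tissue. All 7 Ly6 genes beside Ly6c2 were below 0 in bone marrow, beside 50.7% of all genes with a mean of at least 20. Of them 3, Ly6k (-1.83 ± 0.567), Ly6i (-0.88 ± 0.416) and the neutrophil marker gene Ly6g (-0.29 ± 0.105), had an unadjusted DESeq2 p under 0.05 in the authors' deposited table. The median of -0.60 was the value of Ly6a (± 0.367), and Ly6c1, Ly6i and Ly6k below it had means of only 10.7, 36.0 and 27.5. By contrast, Ly6e (mean 5059) and Ly6d (mean 1227) were near 0, at -0.04 ± 0.0732 and -0.06 ± 0.108, in the authors' deposited table. Ly6c1 is counted here and among the 24 genes above. In spleen 4 of the 7 were below 0, and 1, Ly6k (-0.57 ± 0.243), had an unadjusted DESeq2 p under 0.05 in the authors' deposited table. Of 8 S100 genes, 7 were below 0 in bone marrow, with S100a11 at -0.22 ± 0.0737 and S100a6 at -0.23 ± 0.0863 in the authors' deposited table and 2 at an unadjusted DESeq2 p under 0.05. Of 9 S100 genes in spleen, 5 were below 0 with a median of -0.19, and 0 had an unadjusted DESeq2 p under 0.05, S100a10 (0.14 ± 0.0788) and S100a6 (0.17 ± 0.108) having the smallest p in the authors' deposited table. Of 11 KLF genes in bone marrow, 7 were below 0, and Klf2 was at 0.26 ± 0.0995 in the authors' deposited table. Klf10 (0.41 ± 0.183) and Klf6 (0.19 ± 0.0893) were higher in spleen at an unadjusted DESeq2 p under 0.05 in the authors' deposited table, without passing over all genes, and Klf5 (-0.85 ± 0.425, mean 11.8) was lower at that p. For marrow the authors' deposited table has Klf10 at -0.11 ± 0.152 and Klf6 at -0.03 ± 0.0962. Of the 12 KLF genes listed in spleen, 6 were below 0 and 6 above.

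Ccr2 and Cx3cr1 lie on chromosome 9, which also carries Trex1 and Cgas. On GRCm38, Cx3cr1 spans 119901616 to 120069879 on the minus strand and Ccr2 124101950 to 124113557 on the plus strand. Their lower coordinates lie 10.8 Mb and 15.0 Mb from the lower coordinate of Trex1. Within 5 Mb of Cx3cr1, 0 of 78 genes were called in bone marrow and 0 of 126 in spleen. Within 5 Mb of Ccr2 the counts were 0 of 65 and 0 of 105. Over all genes the share passing was 0.534% for marrow and 0.133% for spleen. With shares that low, 0 calls among so few genes is common, and an effect of lying near Trex1 or Cgas was not tested. The other members lie on chromosomes 1 (Fn1), 3 (S100a4), 4 (Klf4), 10 (Lyz2, 117277331 to 117282321), 13 (F13a1), 15 (Ly6c2, 75108158 to 75111970) and 18 (Cd14). Of the targeted genes, Cgas and Trex1 matched the labels, with Cgas at -1.13 ± 0.155 and Trex1 at 1.45 ± 0.178 in marrow, and at -0.92 ± 0.217 (Cgas, listed as Mb21d1) and 2.71 ± 0.199 (Trex1) in spleen, by the authors' deposited tables. Sting1, listed as Tmem173, was at -0.13 ± 0.176 in marrow and -0.02 ± 0.0751 in spleen by the authors' deposited tables, and its gt allele is a missense change, so its level does not check the labels.

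Genes of other cell types are given for the same comparisons. Beside the fall of Ly6c2 and Lyz2 in bone marrow, 11 of 12 neutrophil genes were below 0 (median -0.15, 0 called), all 10 erythroid genes were above 0 (median 0.66, 1 called higher) and 16 of 18 interferon-stimulated genes were below 0 (median -0.71, 5 called lower), by the authors' deposited table. Over all marrow genes, 0.534% passed in either direction and 0.361% as lower. At an unadjusted DESeq2 p under 0.05, 7 of the 10 erythroid genes were higher, beside 4.19% of all genes. At that p, 11 of the 18 interferon-stimulated and 2 of the 12 neutrophil genes were lower, beside 4.65% of all genes. Macrophage genes had 4 of 10 below 0 (median 0.06, 0 called) and dendritic cell genes 2 of 10 (median 0.09, 1 called higher) in the authors' deposited table. The marrow table lists no gene with a mean under 6.46, so a marker near 0 would not appear in it. It holds all 12 neutrophil genes, 10 of 12 macrophage, 7 of 8 megakaryocyte and 8 of 9 stromal genes, and the lowest means were 1693 for neutrophil, 12.3 for macrophage and 34.1 for interferon-stimulated genes. In spleen 10 of 12 neutrophil, 11 of 12 macrophage and all 10 erythroid genes were below 0 and 16 of 18 interferon-stimulated genes above, with 0 called in each, by the authors' deposited table. Below 0 were 1 of 6 B cell, 5 of 10 NK and T cell, 3 of 7 megakaryocyte and 4 of 8 stromal genes in marrow, and 1 of 6, 5 of 10, 2 of 7 and 7 of 8 of them in spleen, with 0 called, by the authors' deposited tables. Their part in the values of the 9 markers was not tested.

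**Figure D4:**
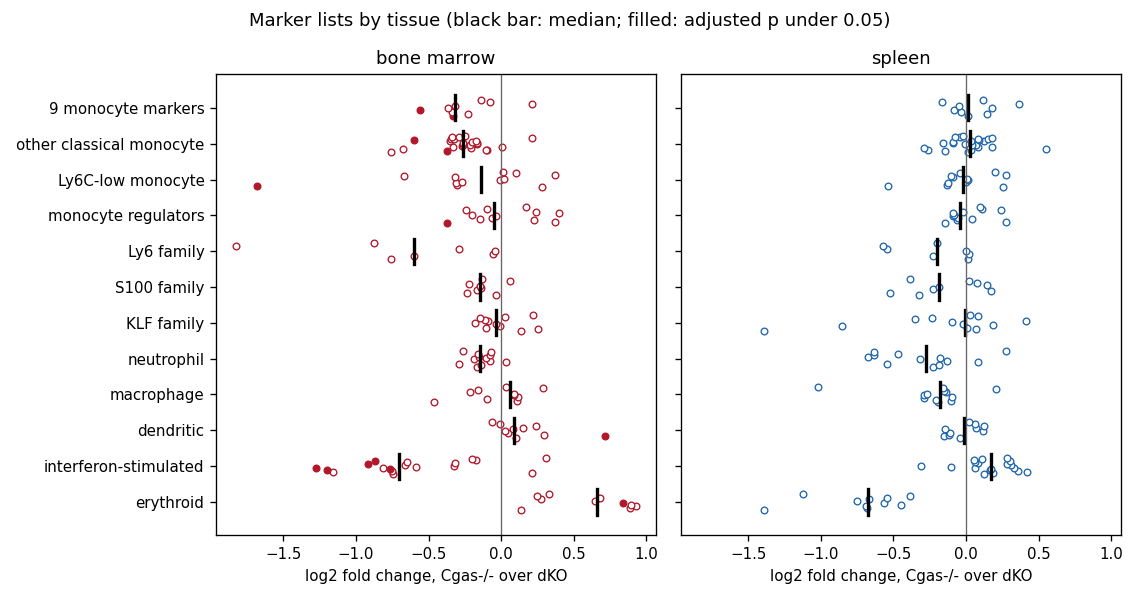
Log2 fold changes of single genes (points) and list medians (black bars) for Cgas-/- over dKO bone marrow (left) and for spleens with Cgas-/- over dKO marrow (right), with filled points for a DESeq2 adjusted p under 0.05 in the authors' tables. The medians of the 9 markers and of the 24 other classical monocyte genes are -0.32 and -0.26 in bone marrow and 0.01 and 0.03 in spleen.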

How the data were processed

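RNA from suspended cells of bone marrow (8 libraries) and spleen (10 libraries) was sequenced from QuantSeq FWD libraries, as the labels' protocols state, and libraries were grouped by their labels. STAR 2.6.1, bcl2fastq 1.8.4, Partek, the mm10 build and DESeq2 are named in the submitters' processing notes. For the counter, annotation and counting strand, the sources used here give nothing.

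The authors deposited 1 table of DESeq2 results per tissue. The mean normalized count, a signal, was deposited as 1 value per gene and tissue. Per the file headers, the authors' DESeq2 run also gave each gene's log2 fold change, standard error, Wald score, p-value and adjusted p-value. Recomputing the Wald score, p-value and Benjamini-Hochberg value from the deposited columns gave the deposited values. The direction is Cgas-/- over dKO, from the tables' names and from Trex1 and Cgas. No counts per library were used, so no count test was run and the depth is unknown.

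Calls use the deposited adjusted p-value at 0.05 over each whole table. Intervals are the estimate with its standard error under a normal approximation. Tissue differences used a two-sided normal test on 13776 genes, whose code was run on simulated data. Those data were drawn from normal distributions with the same deposited standard errors, so they could not check the errors or the normal approximation. The test takes the deposited standard errors as exact, and whether they hold for these libraries was not tested. The robust SD of the deposited Wald statistics was 1.07 in bone marrow and 0.874 in spleen. The members and lists were chosen with earlier results of these data known. Named genes are the members, their paralogs, the targeted genes, and genes of each list that passed or had the smallest p; lists of other cell types are given as counts, and the genes named for large errors, CCR2 ligands, CD14 partners, Nr4a1, Cebpb and the Ly6, S100 and KLF relatives were partly chosen after their values were seen. Coordinates are from GENCODE M21 (GRCm38). Calculations used Python 3.11.15, pandas 2.3.3, numpy 2.4.6 and scipy 1.17.1, and figures matplotlib 3.10.9.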

Additional observations from a re-analysis of the deposited data

Results flagged for a closer look

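No member was flagged, and groups could not be searched for single outlying libraries. Among other genes named, 2 differed between the tissues by a test of the difference itself over 13776 genes. Trex1, a targeted gene, had a spleen minus bone marrow log2 difference of 1.26 ± 0.267 (normal test, Benjamini-Hochberg adjusted p = 0.00432). Rtp4, an interferon-stimulated gene in the list set beside the monocyte markers, had a difference of 1.2 ± 0.262 (adjusted p = 0.00794), with a log2 fold change of 0.29 ± 0.175 in spleen and -0.92 ± 0.195 in bone marrow in the authors' deposited tables.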

How the results depend on the processing

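Each member was recomputed in bone marrow, in spleen and as the tissue difference under 5 alternatives: only genes with a mean of at least 20, no genes within 10 Mb of Trex1 or Cgas, Holm adjustment, centring on the median of all genes, and Wald statistics divided by their robust SD. Of 135 such values, 134 kept their direction and side of the threshold. That tally could hardly differ, since centring alone shifts a log2 fold change, and only slightly. Apart from Ly6c2 and Lyz2 in bone marrow, the lowest adjusted p in the main setting was 0.349 (DESeq2, Cx3cr1 in bone marrow), far from the threshold. The exception was Ly6c2 in bone marrow, which lost its call under Holm (adjusted p = 0.415), so that 1 member was called there in place of 2. The adjusted p of Ly6c2 ranged between 0.00993 and 0.415 over the 5 alternatives, and that of Lyz2 between 3.14e-07 and 5.75e-06. With robust scaling Ly6c2 was at 0.0399. Calls over all genes in bone marrow numbered 77 in the main setting, 43 with robust scaling and 23 with Holm. Without the genes near Trex1 and Cgas, spleen calls numbered 11 in place of 29 and tissue differences 4 in place of 8. No member was called in spleen or as a difference under any of the 5. The members' median without Ly6c2 and Lyz2 was -0.23 in marrow and 0.11 in spleen. No paired analysis was possible because values per library were not used, and for the same reason leaving out a library, another normalization and a refit with another tool were not run.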

Other observations

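The genes with changes most like those of Ly6c2 over the 2 comparisons, by Euclidean distance between the pairs of log2 fold changes among 4198 genes with a mean of at least 20 and a standard error of at most 0.15 in both tables, were Mcu (distance 0.0122), Ctsh (0.0140) and Snapin (0.0153). Ctsh, a lysosomal cathepsin gene, was at -0.33 ± 0.0875 in marrow by the authors' deposited table (DESeq2 adjusted p = 0.0397). Mcu and Snapin did not pass there (DESeq2 adjusted p = 0.0621 and 0.434). The standard errors of Ly6c2 itself were 0.0794 in marrow and 0.161 in spleen, the latter above the limit of 0.15. The distances lie below these errors, so which genes are truly nearest cannot be told. A pair of comparisons is a thin basis for likeness.

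Errors were also high for other cell types. In spleen, standard errors above 2 times the median of genes of like level were found for 10 of 12 neutrophil genes, 8 of 12 macrophage genes and 8 of 10 erythroid genes, beside 2.30% of all genes with a mean of at least 20, and for 1 of the 9 monocyte markers. In bone marrow the same count was 0 of 12 for neutrophil genes, 4 of 10 for erythroid genes and 5 of 9 for the monocyte markers.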
